A study of Mus musculus with 6 samples.

Results

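The Slc22 organic ion transporters measured here are 10 genes of 1 carrier family, Slc22a3, Slc22a4, Slc22a5, Slc22a13, Slc22a14, Slc22a15, Slc22a17, Slc22a18, Slc22a21 and Slc22a23, out of 36047 genes with values. The members were taken by name as family members, with earlier results of these data known. Slc22a14 was chosen by its measured change, a large rise in counts and TPM in CSE against PBS in these same libraries. Its difference between the groups is therefore described without a test. The annotation holds 26 genes of the Slc22a series, and the other 16 are given by their counts.

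RNA-seq of polyA RNA was performed on MLE-12 cells of WT genotype, an epithelial line from mouse lung that carries the large T antigen of a virus, which immortalised it. In the CSE group (3 libraries), cultures at 30% density received cigarette smoke extract, a solution of smoke constituents, at 5% and an optical density of 2, and were collected 24 h later. In the PBS group (3 libraries), cultures received the same volume of buffer. Whether the 3 libraries of a group stem from different cultures is stated by no label. The p-values therefore reflect library-to-library spread alone, and that spread may be technical.

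SLC22 proteins are plasma membrane carriers of the major facilitator superfamily that move small organic cations, anions and zwitterions such as carnitine. They are best known from kidney and liver, where they take up drugs and metabolites. In airway epithelium, the organic cation and carnitine carriers of the family are known for the uptake of inhaled drugs. Several members have no settled substrate.

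The libraries held between 12093009 and 24050167 estimated counts. At these depths 3 counts correspond to between 0.125 and 0.248 CPM (counts scaled to a common library size). Because the extraction protocol in the labels mentions lung tissue, although the samples are given as the cell line, markers were checked. The 8 epithelial markers summed to between 1392 and 1534 TPM (a level scaled to transcript length and to the same sum in each library) in PBS and to between 803 and 907 TPM in CSE, and Cldn4 was under 0.1 TPM in every library. Krt18 was also low, at 0.356 ± 0.237 TPM in PBS and 0.168 ± 0.135 TPM in CSE (SD, n = 3 each), and was not tested. The 4 leukocyte markers summed to between 2.53 and 5.43 TPM in PBS and between 2.03 and 4.60 TPM in CSE. The 4 endothelial markers summed to between 2.28 and 2.80 TPM in PBS and between 1.37 and 3.29 TPM in CSE, with Cdh5 at 0 throughout. Pecam1 and Vwf differed in direction, with log2 changes of -0.85 ± 0.27 and 1.07 ± 0.36 (SE), and neither was called (edgeR quasi-likelihood adjusted p = 0.0671 and 0.0828). The 5 markers of fibroblasts and smooth muscle summed to between 18.0 and 18.8 TPM in PBS and between 13.5 and 14.9 TPM in CSE, and the 4 hepatocyte markers stayed at or under 0.217 TPM. The epithelial and fibroblast sums were both lower in CSE. All 6 tested epithelial markers had a negative log2 change, of differing size. Krt19, which made up most of the sum, fell from 1005 ± 47.2 to 493 ± 40.3 TPM (SD, n = 3 each; edgeR quasi-likelihood test, Benjamini-Hochberg adjusted p = 8.87e-05). Cdh1 and Krt8 were also called lower (log2 changes of -0.89 ± 0.14 and -0.29 ± 0.08, SE; edgeR quasi-likelihood adjusted p = 0.00207 and 0.0481). Epcam and the lung epithelial factors Nkx2-1 and Foxa2 were not called (log2 changes of -0.46 ± 0.24, -0.11 ± 0.08 and -0.21 ± 0.10, SE). In the fibroblast list Col1a1 fell from 14.7 ± 0.446 to 9.05 ± 0.574 TPM and Pdgfra rose from 2.67 ± 0.154 to 4.49 ± 0.576 TPM (SD, n = 3 each; edgeR quasi-likelihood adjusted p = 0.000353 and 0.00125). The part of these markers in the values below was not tested. In bulk RNA, fewer cells of a type and less RNA per cell cannot be told apart.

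Slc22a14 and Slc22a23 carried most of the difference between the groups, so the RefSeq promoters of both (GRCm38.p6, 250 bases before to 50 bases after the annotated start) are shown with that of Slc22a5, the most abundant member in PBS, for contrast. Capitals mark GCGTG or its reverse complement CACGC, the core that the dioxin receptor binds with its partner. All 3 lie on the minus strand and are written 5′ to 3′ along the gene, at chr9:119190346-119190645, chr13:34345169-34345468 and chr11:53891654-53891953.
Slc22a14: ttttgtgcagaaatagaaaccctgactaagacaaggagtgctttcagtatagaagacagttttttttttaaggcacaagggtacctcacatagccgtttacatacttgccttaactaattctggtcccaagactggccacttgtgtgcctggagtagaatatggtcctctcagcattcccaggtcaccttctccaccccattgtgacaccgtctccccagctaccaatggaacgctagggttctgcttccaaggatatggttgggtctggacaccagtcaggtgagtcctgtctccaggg
Slc22a23: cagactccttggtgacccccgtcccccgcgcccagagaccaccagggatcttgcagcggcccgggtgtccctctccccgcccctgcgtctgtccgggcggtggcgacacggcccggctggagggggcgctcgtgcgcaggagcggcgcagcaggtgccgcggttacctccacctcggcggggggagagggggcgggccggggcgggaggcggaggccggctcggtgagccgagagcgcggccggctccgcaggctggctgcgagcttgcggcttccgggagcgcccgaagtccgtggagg
Slc22a5: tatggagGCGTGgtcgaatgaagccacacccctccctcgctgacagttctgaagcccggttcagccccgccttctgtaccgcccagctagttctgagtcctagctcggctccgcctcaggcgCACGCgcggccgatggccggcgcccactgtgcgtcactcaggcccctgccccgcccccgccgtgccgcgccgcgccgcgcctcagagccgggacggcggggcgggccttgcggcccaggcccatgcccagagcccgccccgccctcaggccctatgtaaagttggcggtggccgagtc

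GCGTG, counted on both strands, was absent from the windows of Slc22a14 and Slc22a23 and occurred 2 times in that of Slc22a5, 243 bases before the start on the gene's strand and 128 bases before it on the other. Of the 9 members in the promoter table (Slc22a21 had no entry), Slc22a4 had 4 such matches and Slc22a15 had 1, and Slc22a3, Slc22a13, Slc22a17 and Slc22a18 had none. The pentamer is common, being present in 32.4% of 32851 promoters of this length. TGACNNNGC, the core of the antioxidant response element, and the PPAR response element (AGGTCA as a direct repeat with any 1 base between) were, on both strands, in none of the 9 windows, against 12.4% and 0.0396% of all promoters. The windows of Slc22a14 and Slc22a23 are those of the transcripts Slc22a14-201 and Slc22a23-201. As given below, most counts of both genes were assigned to other transcripts, whose annotated starts lie outside these windows. Whether transcription began at any of these annotated starts was not tested.

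The question addressed first was how abundant each carrier was in these lung cells and whether its level differed after smoke extract. Slc22a23 and the carnitine carrier Slc22a5 were the most abundant members and Slc22a3, Slc22a13 and Slc22a18 were close to 0. Apart from Slc22a14, 1 of the 6 members with enough counts for the test rose in CSE (Slc22a23, 2.50-fold) and none fell. Of all 13451 genes tested, 4.32% were called higher and 7.12% were called lower. Slc22a14 stood at 0.959 ± 0.222 TPM in PBS (SD, n = 3) and 5.15 ± 0.372 TPM in CSE (SD, n = 3).

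A gene was tested when it passed edgeR's filter (minimum count 10), and it was called where edgeR's quasi-likelihood test (two-sided, with Benjamini-Hochberg adjustment over all tested genes) gave an adjusted p below 0.05. This called 11.4% of tested genes in either direction. Of the 10 members 7 passed the filter, and all 7 also passed on the PBS libraries alone. Apart from Slc22a14, every CSE library was above every PBS library in CPM in 2 of the 6 tested members, Slc22a23 and Slc22a5, against 14.0% of all tested genes. In no member was every CSE library below every PBS library, against 16.4% of tested genes. The median log2 change was 0.17 over the 6 tested members other than Slc22a14, 0.19 with it, and 0.01 over all tested genes.

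**Figure D1:**
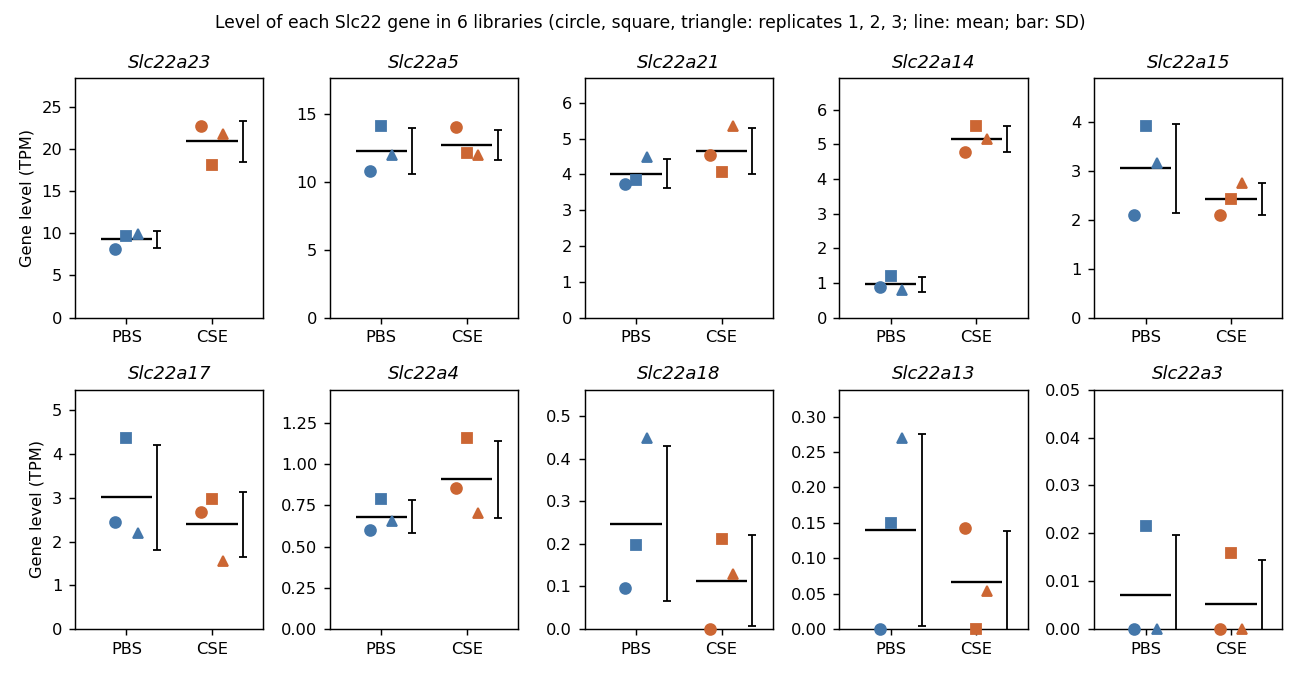
Level of each of the 10 Slc22 genes in TPM (vertical axis, its own scale in each panel) in the 3 PBS and 3 CSE libraries; symbols are replicates 1, 2 and 3, the line is the mean and the bar the SD. Slc22a23 and Slc22a14 are the panels in which the CSE libraries lie above the PBS libraries, at 18.2 to 22.7 TPM and 4.78 to 5.52 TPM.

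Slc22a14 is known as a riboflavin carrier of sperm that male mice need for fertility. The gene spans chr9:119169455-119365553 on the minus strand (GRCm38). Its level was 0.868, 1.21 and 0.797 TPM in the PBS libraries and 4.78, 5.52 and 5.14 TPM in the CSE libraries. The lowest CSE library was thus above the highest PBS library, but the gene was picked for this rise. In CPM, 14.0% of all tested genes had every CSE library above every PBS library. The CSE libraries of Slc22a14 lay close together in TPM. The values rest on few reads in PBS, with 9, 23 and 18 estimated counts there and 71, 169 and 112 in CSE. The fitted log2 change was 2.76 ± 0.23 (SE), a 6.76-fold difference in counts, and 7 tested genes had a larger one. In TPM the ratio of the means was 5.37.

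No word of 31 bases in any Slc22a14 transcript occurred in a transcript of another gene. The counts assigned to Slc22a14-204 were 7.53, 22.1 and 18.0 in PBS and 71.0, 169 and 91.5 in CSE. Slc22a14-201 received 0 counts in 5 libraries and 19.5 in CSE replicate 3, and the short Slc22a14-203 (589 bases) received between 0 and 1.47. Slc22a14-204 and Slc22a14-201 hold the same 1887 coding bases and differ in their first, untranslated exons. The annotated start of Slc22a14-204 lies 175146 bases upstream of that of Slc22a14-201, at the end of the span that lies inside Xylb, beyond Slc22a13, Oxsr1, Myd88 and Acaa1a. Only 31 words of Slc22a14-204 are missing from Slc22a14-201, and 134 the other way, so the assignment rests on a short stretch of sequence. The share of the gene's counts on Slc22a14-204 was 93.3 ± 8.51% in PBS and 93.9 ± 10.6% in CSE (SD, n = 3 each; exact permutation test, two-sided, p = 1.0, adjusted over 7 members p = 1.0). With 3 libraries against 3, the exact permutation test cannot go below p = 0.1.

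**Figure D2:**
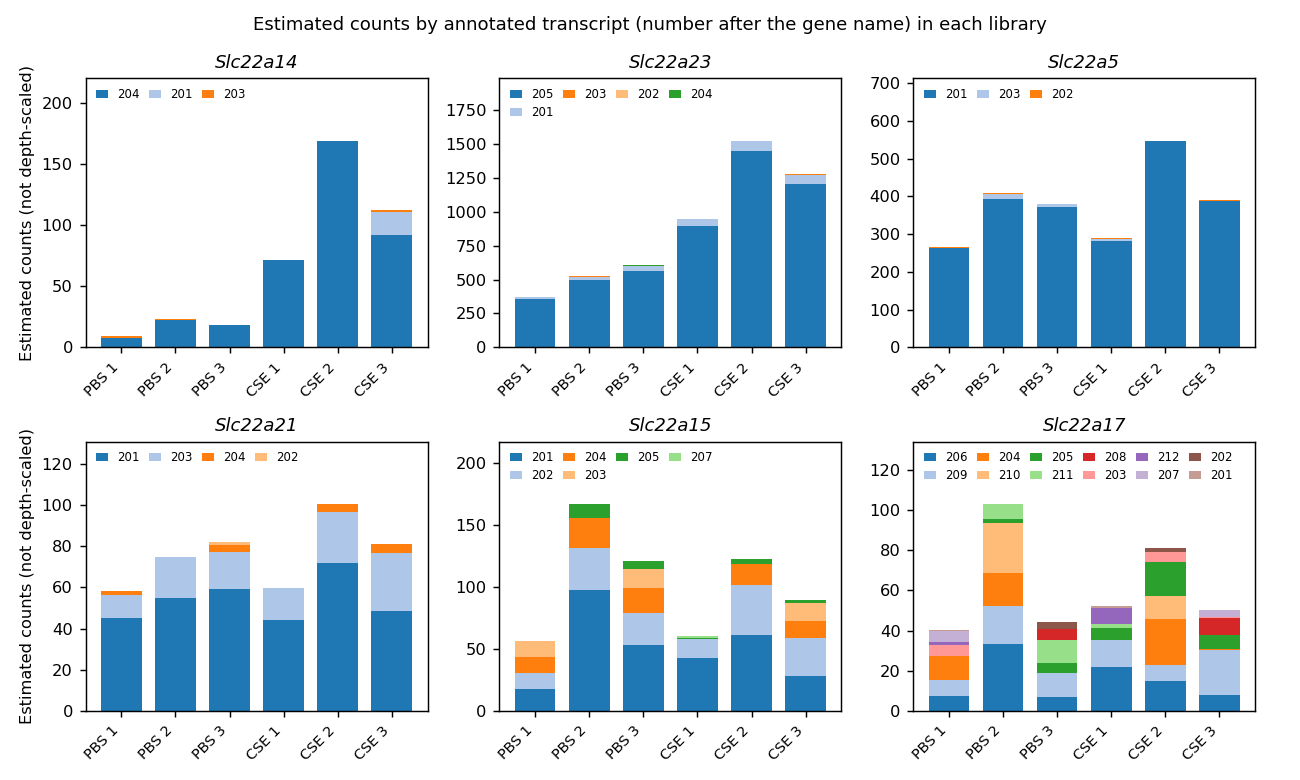
Estimated counts (vertical axis, not scaled to depth) assigned to each annotated transcript of 6 Slc22 genes in every library, stacked, with the transcript number as the colour key. Slc22a14 counts lie mostly on transcript 204, with 19.5 counts of transcript 201 in CSE replicate 3 and up to 1.47 counts of transcript 203, Slc22a23 counts lie mostly on transcript 205, and those of Slc22a15 and Slc22a17 are spread over many transcripts.

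The protein-coding genes whose profile over the 6 libraries was nearest to that of Slc22a14, by Euclidean distance in log2 CPM centred on each gene's mean, were Atp12a (distance 0.498), Ces1g (0.702), Tiparp (0.735), Aldh3a1 (0.836) and Gsta3 (0.840). They were found in the contrast for which Slc22a14 was picked and are a description. Their levels differed widely. Aldh3a1, an aldehyde dehydrogenase, went from 37.6 ± 2.20 TPM in PBS to 255 ± 29.3 TPM in CSE (SD, n = 3 each). Ces1g, a carboxylesterase, was at 0.974 ± 0.135 TPM and 5.08 ± 0.801 TPM (SD, n = 3 each), levels like those of Slc22a14. Atp12a, a proton and potassium pump, was at 0.00753 ± 0.0130 TPM in PBS and only 0.353 ± 0.0885 TPM in CSE (SD, n = 3 each). The log2 CPM used a prior count of 2, which shrinks changes at such low levels. Its small distance therefore does not mean a fold change like that of Slc22a14.

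The tested protein-coding gene nearest to Slc22a14 outside its span was Acaa1b, a peroxisomal thiolase of fatty acid oxidation, 12362 bases away at chr9:119148023-119157093. Acaa1b measured 5.25, 6.91 and 7.88 TPM in PBS and 18.1, 20.2 and 15.6 TPM in CSE. It rose in CSE by 1.50 ± 0.14 on the log2 scale (SE; edgeR quasi-likelihood test, Benjamini-Hochberg adjusted p = 7.53e-05). Of the 31-base words of Acaa1b-201, 57.4% occur in another gene, mostly its paralog Acaa1a, so reads can be shared between them. Acaa1a itself stood at 85.1 ± 2.67 TPM in PBS and 78.4 ± 5.54 TPM in CSE (SD, n = 3 each; log2 change -0.04 ± 0.06, edgeR quasi-likelihood adjusted p = 0.747). The 4 tested protein-coding genes that overlap the Slc22a14 span, Oxsr1, Myd88, Acaa1a and Xylb, were not called, with log2 changes between -0.04 and 0.31. The tested pseudogene Slc22a13b-ps, which lies within the span, was not called either (log2 change -0.62 ± 0.45, SE). Over all members, 1 of 15 tested protein-coding neighbours that are no member (the nearest without overlap on each side within 500 kb) was called higher, against 4.32% of all genes, and none lower, against 7.12%.

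**Figure D3:**
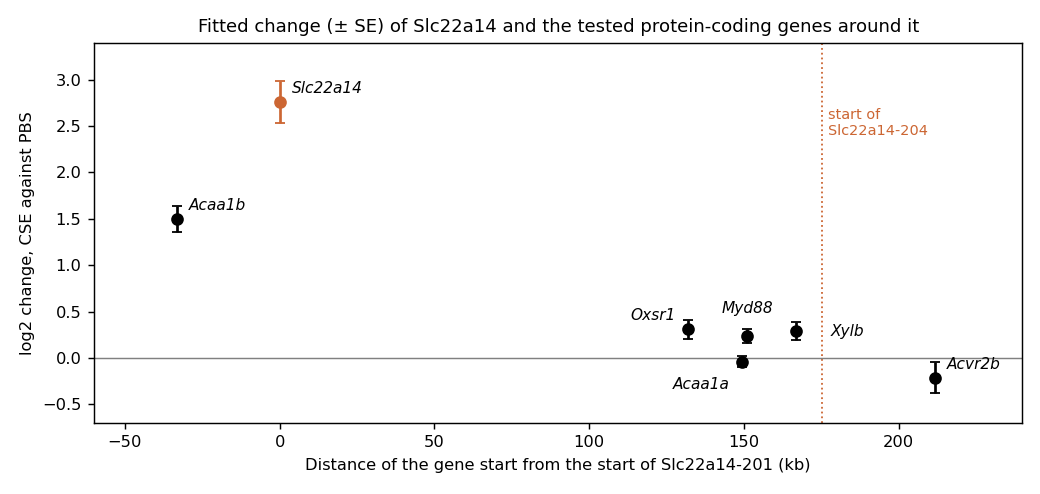
Fitted log2 change of Slc22a14 and of the tested protein-coding genes around it (vertical axis, ± SE) against the distance of each gene's start from the start of Slc22a14-201 in kb. Slc22a14 (2.76) and Acaa1b (1.50) lie high on the left, and the genes between the annotated starts of Slc22a14-201 and Slc22a14-204 (dotted line) lie between -0.04 and 0.31. Slc22a14 is placed at the start of Slc22a14-201, although most of its counts were assigned to Slc22a14-204.

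Slc22a23 is an orphan member, with no settled substrate, known for its abundance in brain. It spans chr13:34179158-34345182 on the minus strand. Its level was 8.18, 9.68 and 9.95 TPM in the PBS libraries and 22.7, 18.2 and 21.8 TPM in the CSE libraries. Every CSE library was above every PBS library, and the gap between the groups was wider than the range within either. Slc22a23 rose 2.50-fold in CSE (95% interval 2.16 to 2.89; log2 change 1.32 ± 0.10, SE; edgeR quasi-likelihood test, Benjamini-Hochberg adjusted p = 1.16e-05). This rests on 1498 estimated counts in PBS and 3749 in CSE, and 55 tested genes had a larger log2 change. With 1 library left out at a time, the log2 change lay between 1.27 and 1.42 and the call remained each time.

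Most counts of Slc22a23 were assigned to Slc22a23-205, which held 94.5 ± 1.53% of them in PBS and 94.5 ± 0.569% in CSE (SD, n = 3 each; exact permutation test, two-sided, p = 1.0, adjusted over 7 members p = 1.0). This transcript model begins inside the first exon of the full-length Slc22a23-201 (293 against 1024 bases of that exon). It also lacks 1 coding exon of 24 bases at chr13:34193249-34193272. It holds 1697 annotated coding bases against 2067 in Slc22a23-201, so that exon is not the whole coding difference. The junction is shown as a difference between the 2 models beyond their first exons, with the 24-base exon in capitals between 20 bases on either side, from the GENCODE vM21 transcripts on the gene's strand.
Slc22a23-201: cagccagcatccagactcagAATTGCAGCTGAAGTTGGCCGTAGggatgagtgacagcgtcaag
Slc22a23-205: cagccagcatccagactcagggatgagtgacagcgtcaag

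Of the 31-base words of Slc22a23-205, 28 are absent from Slc22a23-201, and 783 words of Slc22a23-201 are absent from Slc22a23-205. Among all transcripts Slc22a23-205 has no 31-base word of its own, while 639 words occur in Slc22a23-201 alone. Slc22a23-205 was at 7.48, 7.89 and 8.91 TPM in PBS and 21.3, 17.0 and 19.4 TPM in CSE. It rose by 1.34 ± 0.10 on the log2 scale (SE; edgeR quasi-likelihood test over 33930 transcripts, Benjamini-Hochberg adjusted p = 0.00866). Slc22a23-201 stood at 0.260, 0.313 and 0.558 TPM in PBS and 1.12, 0.719 and 0.991 TPM in CSE, with a log2 change of 1.42 ± 0.36 (SE; edgeR quasi-likelihood adjusted p = 0.204). In TPM the groups did not overlap for either model, but the share of all tested transcripts without overlap was not counted. Of the 13 tested transcripts of members other than Slc22a14, Slc22a23-205 alone was called, against 0.318% of all tested transcripts called higher and 0.908% called in either direction. The call was lost when PBS replicate 3 (adjusted p = 0.0671), CSE replicate 1 (0.0580) or CSE replicate 3 (0.0727) was left out.

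**Figure D4:**
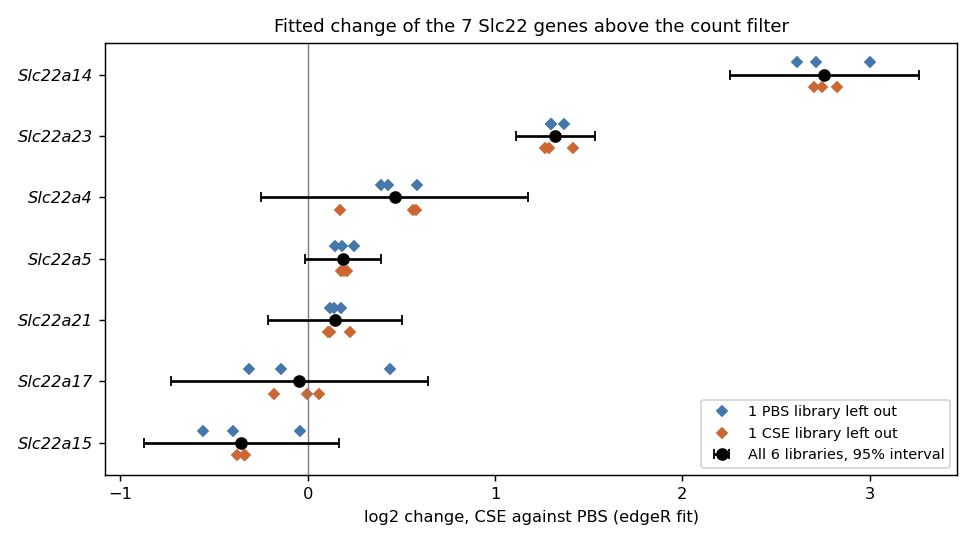
Fitted log2 change (CSE against PBS, horizontal axis) of the 7 Slc22 genes above the count filter; black points and bars are all 6 libraries with the 95% interval, and diamonds leave out 1 PBS (blue) or 1 CSE library (orange). Slc22a23 stays between 1.27 and 1.42, the intervals of Slc22a4, Slc22a5, Slc22a15, Slc22a17 and Slc22a21 reach across 0, and Slc22a14, picked for its difference, is shown for its size only.

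The carnitine and zwitterion carriers Slc22a5, Slc22a21 and Slc22a4 lie side by side on chromosome 11, on the minus strand. None of these was called. Slc22a5 (OCTN2), the sodium-dependent carnitine carrier that supplies cells with carnitine for fatty acid oxidation, was at 10.8, 14.1 and 11.9 TPM in PBS and 14.0, 12.1 and 12.0 TPM in CSE. In TPM the groups overlapped, although in CPM the CSE libraries (22.8 to 23.9) were all above the PBS libraries (19.4 to 22.6). The log2 change was 0.19 ± 0.09 (SE; 95% interval -0.01 to 0.39; edgeR quasi-likelihood adjusted p = 0.221), and nearly all of its counts (98.3%) were on Slc22a5-201.

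Slc22a21 (Octn3), a carnitine carrier of mice, was at 3.74, 3.86 and 4.47 TPM in PBS and 4.54, 4.08 and 5.35 TPM in CSE, and the groups overlapped. Its log2 change was 0.15 ± 0.16 (SE; 95% interval -0.21 to 0.50; edgeR quasi-likelihood adjusted p = 0.614). Slc22a5 and Slc22a21 resemble each other in sequence. Of the 31-base words of Slc22a5-201, 38.7% occur in another gene, mostly Slc22a21, and 33.2% of those of Slc22a21-201 do, mostly in Slc22a5, so the split between them is an estimate. The share of Slc22a21 counts on the coding transcript Slc22a21-201 was 74.6 ± 2.88% in PBS and 68.3 ± 7.42% in CSE (SD, n = 3 each; exact permutation test, two-sided, p = 0.3, adjusted over 7 members p = 1.0). Slc22a4 (OCTN1), the carrier of the antioxidant ergothioneine, was at 0.600, 0.792 and 0.655 TPM in PBS and 0.858, 1.16 and 0.705 TPM in CSE. Its groups overlapped, with a log2 change of 0.46 ± 0.32 (SE; 95% interval -0.25 to 1.18; edgeR quasi-likelihood adjusted p = 0.400). It had 46 counts in PBS and 67 in CSE.

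Slc22a15, which carries zwitterions such as carnosine and ergothioneine, was at 2.09, 3.90 and 3.15 TPM in PBS and 2.09, 2.41 and 2.75 TPM in CSE. The groups overlapped, and the PBS libraries were the more spread out. The log2 change was -0.35 ± 0.24 (SE; 95% interval -0.87 to 0.17; edgeR quasi-likelihood adjusted p = 0.378). It was -0.56 without PBS replicate 1 and -0.043 without PBS replicate 2, and was not called in either case. Its coding transcript Slc22a15-201 held 44.3 ± 13.7% of the gene's counts in PBS and 51.0 ± 19.8% in CSE (SD, n = 3 each), and the short noncoding Slc22a15-202 was the next with 25.9% over all libraries.

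Slc22a17, a cell surface receptor for the iron-binding protein lipocalin 2, was at 2.45, 4.38 and 2.20 TPM in PBS and 2.67, 2.96 and 1.55 TPM in CSE. PBS replicate 2 was the highest and CSE replicate 3 the lowest, and the groups overlapped. The log2 change was -0.04 ± 0.31 (SE; 95% interval -0.73 to 0.64; edgeR quasi-likelihood adjusted p = 0.948), and it was 0.44 without PBS replicate 2 and 0.06 without CSE replicate 3. The counts were spread over many models. The most abundant, the retained-intron transcript Slc22a17-206, held 24.8% and the most abundant of the coding transcripts, Slc22a17-210, held 9.87% over all libraries, and 8 of the 12 Slc22a17 transcripts have no 31-base word of their own.

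The remaining 3 members were too low for the fit. Slc22a18, an imprinted gene of the Kcnq1 domain, had 10 counts in PBS and 5 in CSE over all libraries (ratio scaled to depth 0.481, 95% conditional exact binomial interval 0.129 to 1.55; exact permutation test of CPM, two-sided, p = 0.3). Slc22a13 (OAT10), a carrier of urate and nicotinate, had 9 and 3 counts (ratio 0.321, interval 0.056 to 1.29; exact permutation p = 0.5). Slc22a3 (OCT3), the extraneuronal monoamine carrier, had 1 count in each group, which is under 3 counts, so no ratio is given. These intervals cover counting error only. Slc22a13 also shares 41.5% of its 31-base words with other genes, mostly the pseudogene Slc22a13b-ps.

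Ordered by the mean level over all 6 libraries, the members ran Slc22a23, Slc22a5, Slc22a21, Slc22a14, Slc22a15, Slc22a17, Slc22a4, Slc22a18, Slc22a13 and Slc22a3. The range of Slc22a5 was above that of Slc22a23 in PBS and below it in CSE, with no overlap in either group. Slc22a14 was below every Slc22a21 and every Slc22a15 value in PBS, and in CSE it overlapped Slc22a21 and was above every Slc22a15 value. Slc22a15 and Slc22a17 overlapped in both groups, as did the 3 lowest members. Slc22a5 stood above Slc22a21, Slc22a17 above Slc22a4 and Slc22a4 above Slc22a18 with no overlap in either group.

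The 10 members together summed to 33.6 ± 4.74 TPM in PBS and 49.3 ± 2.56 TPM in CSE (SD, n = 3 each). Slc22a23 made up 27.7 ± 2.13% of this sum in PBS and 42.3 ± 2.93% in CSE. Slc22a5 made up 36.5 ± 1.13% and 25.7 ± 1.45%, and Slc22a14 made up 2.84 ± 0.434% and 10.5 ± 1.31% (SD, n = 3 each). The leading carrier by transcript level was thus Slc22a5 in each PBS library and Slc22a23 in each CSE library. The sum contains Slc22a14 and was not tested.

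**Figure D5:**
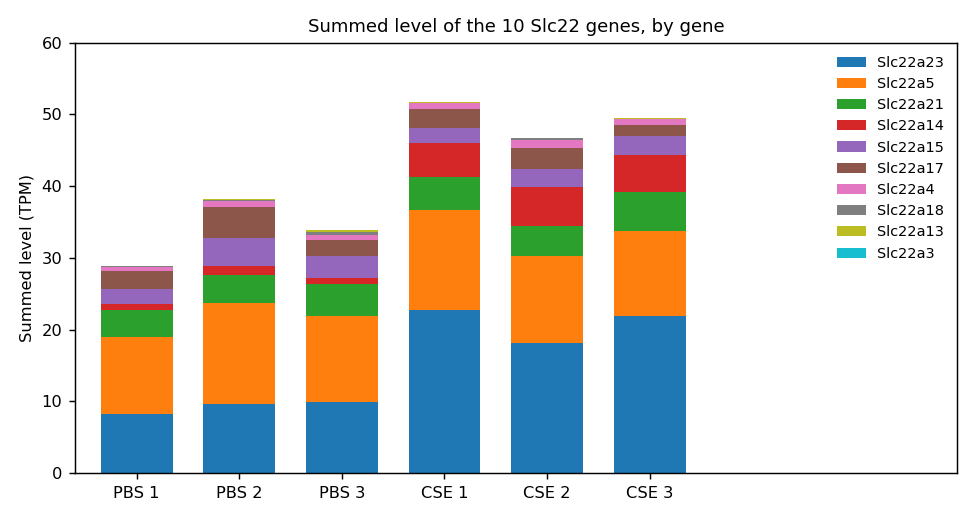
Summed level of the 10 Slc22 genes in TPM (vertical axis) in each library, stacked by gene. The PBS bars reach 28.8 to 38.3 TPM and the CSE bars 46.7 to 51.8 TPM, with Slc22a5 the tallest block in PBS and Slc22a23 in CSE.

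Among the 16 other annotated Slc22a genes, 7 had no count in any library and 7 had between 1 and 20 counts in all. The classical kidney and liver carriers Slc22a2, Slc22a6, Slc22a7, Slc22a8 and Slc22a12 belong to the latter. Slc22a19 had 5 counts in PBS and 17 in CSE (ratio 3.27, 95% conditional exact binomial interval 1.16 to 11.3; exact permutation test of CPM, two-sided, p = 0.2). The pseudogene Slc22a13b-ps passed the filter, with a log2 change of -0.62 ± 0.45 (SE; edgeR quasi-likelihood adjusted p = 0.416). Of the 4 kidney proximal tubule markers, Slc34a1 was at 0 in every library, and their sum (51.0 to 61.7 TPM in PBS, 25.5 to 30.7 TPM in CSE) was nearly all Lrp2.

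Genes that work with these carriers were read from lists by role, and few passed the test. Of the 13 genes of carnitine synthesis and the carnitine shuttle, 10 were tested, none rose and 2 fell, against 4.32% and 7.12% of all genes, with a median log2 change of 0.11 against 0.01. Cpt1b, the muscle form of carnitine palmitoyltransferase, fell from 3.14 ± 0.780 to 1.53 ± 0.108 TPM (SD, n = 3 each; log2 change -0.88 ± 0.20, SE; edgeR quasi-likelihood adjusted p = 0.0160). Its transcript Cpt1b-201 shares 93.7% of its 31-base words with other genes, mostly the gene model Gm44502, and its call was lost when PBS replicate 3 (adjusted p = 0.0522), CSE replicate 1 (0.0514) or CSE replicate 2 (0.0826) was left out. Slc25a29, a mitochondrial carrier of basic amino acids that was first described as a carnitine carrier, fell from 6.88 ± 0.928 to 4.46 ± 0.397 TPM (SD, n = 3 each; log2 change -0.54 ± 0.14, SE; edgeR quasi-likelihood adjusted p = 0.0364). The call on Slc25a29 was lost without any library but PBS replicate 1, with adjusted p between 0.0530 and 0.147.

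In the list of other organic ion carriers (Slco, Slc47a and Slc29a4), 4 of 15 genes were tested and none was called, against 11.4% of all tested genes, with a median log2 change of 0.19 against 0.01. Slco2b1, an organic anion carrier, was at 1.15 ± 0.298 TPM in PBS and 1.64 ± 0.178 TPM in CSE (SD, n = 3 each; log2 change 0.58 ± 0.22, SE; edgeR quasi-likelihood adjusted p = 0.118). Slco5a1 and Slc29a4, a plasma membrane monoamine carrier, stayed under 1 TPM in every library, with log2 changes of 0.40 ± 0.25 and -0.16 ± 0.42 (SE; edgeR quasi-likelihood adjusted p = 0.360 and 0.847). The prostaglandin carrier Slco2a1 was at 78.0 ± 1.35 TPM in PBS (SD, n = 3), above any Slc22 member.

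Of the genes of monoamine breakdown, the monoamine oxidases Maoa and Maob were not called, with log2 changes of 0.03 ± 0.10 and 0.08 ± 0.10 (SE; edgeR quasi-likelihood adjusted p = 0.900 and 0.655). Of the 7 PDZ scaffolds and regulators known to act on the family 2 were tested, and 1 fell, against 7.12% of all tested genes (median log2 change -0.32 against 0.01). Slc9a3r2, a PDZ scaffold of apical transporters, fell from 101 ± 5.21 to 71.5 ± 6.05 TPM (SD, n = 3 each; log2 change -0.44 ± 0.07, SE; edgeR quasi-likelihood adjusted p = 0.00215).

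Lipocalin 2, the ligand of Slc22a17, and Lrp2, a separate receptor for it, moved in opposite directions. Lcn2, an iron-scavenging acute phase protein, was at 13.9, 17.0 and 10.8 TPM in PBS and 21.1, 24.6 and 27.6 TPM in CSE, and rose by 0.94 ± 0.19 on the log2 scale (SE; edgeR quasi-likelihood adjusted p = 0.0103). Without CSE replicate 3 the adjusted p was 0.0507. Lrp2 (megalin), a large endocytic receptor that is also among the kidney markers, was at 50.3, 53.0 and 61.0 TPM in PBS and 30.5, 28.1 and 25.3 TPM in CSE, and fell by 0.91 on the log2 scale (SE 0.08; edgeR quasi-likelihood adjusted p = 2.87e-05). Neither gene's groups overlapped in TPM. Counted in CPM, 14.0% of all tested genes had every CSE library above every PBS library and 16.4% had every one below.

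The imprinted genes around the silent or nearly silent members were also read. Of the 15 listed as imprinted neighbours of Slc22a18, 9 were tested and 1 fell, against 7.12% of all tested genes. It was Osbpl5, a lipid-transfer protein (18.3 ± 1.99 to 11.4 ± 1.68 TPM, SD, n = 3 each; log2 change -0.61 ± 0.11, SE; edgeR quasi-likelihood adjusted p = 0.00425). The median log2 change of this list was -0.16 against 0.01. Cdkn1c, a cell cycle inhibitor 12686 bases from Slc22a18, was at 42.7, 44.5 and 46.2 TPM in PBS and 34.8, 36.3 and 37.6 TPM in CSE (log2 change -0.16 ± 0.09, SE; edgeR quasi-likelihood adjusted p = 0.290), while Slc22a18 itself had 15 counts in all 6 libraries. Of the 4 genes around Slc22a3, Igf2r, the mannose 6-phosphate receptor, was the only one tested (46.0 ± 17.6 TPM in PBS and 30.8 ± 6.42 TPM in CSE, SD, n = 3 each; log2 change -0.08 ± 0.11, SE; edgeR quasi-likelihood adjusted p = 0.682). The noncoding RNAs Kcnq1ot1, H19 and Airn were not analysed here.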

How the data were processed

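Per the file headers, which use kallisto's column names, an estimated count and a TPM value are given for each of 118489 transcripts in every deposited file. GRCm38, FastQC 0.12.1, fastp 0.20.1, kallisto 0.46.2 and DESeq2 1.40.2 are named in the submitters' processing notes. The transcript index, trimming and strandedness are not named in these sources. The deposited estimated counts are not scaled to depth, and the deposited TPM values are scaled by the authors to length and to the same sum in each library. kallisto shares reads that match several transcripts among them by a model, and the files give no error of that assignment.

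Of these transcripts 116816 (98.6%) were matched to GENCODE vM21 by identifier and version, and the other 1673 were left out. Counts and TPM were summed over 36047 genes, and counts were rounded. Genes were filtered with filterByExpr (minimum count 10), scaled by TMM (factors 0.976 to 1.027) and compared by the quasi-likelihood test of edgeR, two-sided, with treatment as the only factor, Benjamini-Hochberg adjustment and a threshold of 0.05. This called 1539 of 13451 genes (11.4%), and the biological coefficient of variation was 9.2%. Transcripts were fitted the same way. Libraries of a group differed beyond sampling noise (chi-square 5.61 to 17.7 per degree of freedom). The procedure was tested on simulated counts.

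The members and lists were chosen with earlier results of these data known. Named genes were the members, the other Slc22a genes, the called genes or otherwise the 3 of smallest p in each list of related genes, the nearest tested protein-coding neighbours within 500 kb, and the 5 protein-coding genes with the profile closest to Slc22a14. Slco2a1 and the genes overlapping a member were added after their values were seen. Some genes that this rule names are not reported here. Promoters are those of RefSeq on GRCm38.p6.

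Other settings tried were DESeq2, limma-voom, RLE or library-size scaling, no filter, a mean of at least 5 CPM, an effective-length offset, for genes of at least 1 TPM limma with a pseudocount of 1 or 0.1 on log2 TPM, the replicate block, removal of GC and length trends by loess (span 0.5), and leaving out each library. Fits were run in R 4.3.3 with limma 3.58.1, DESeq2 1.42.0 and edgeR 4.0.16. Tables and plots were made in Python 3.11.15 with matplotlib 3.10.9 and pandas 2.3.3.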

Additional observations from a re-analysis of the deposited data

How the results depend on the processing

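Slc22a23 was called higher under every alternative run, with log2 changes between 1.09 and 1.43 and an adjusted p of at most 0.00839. Apart from Slc22a14, which is described without a test, no other member was called in either direction in any setting that tested it. Not every setting tested each member. A mean of at least 5 CPM kept Slc22a23, Slc22a5 and Slc22a15 alone. Slc22a4 had no result with DESeq2 or with limma on log2 TPM. Slc22a17, not called in any fit, turned to 0.035 with limma-voom, 0.10 with the GC and length trend removed, 0.44 without PBS replicate 2 and 0.06 without CSE replicate 3, and lay between -0.32 and 0.44 with each library left out in turn. Apart from Slc22a14, 1 transcript of the members was called, and between 0 and 1 with 1 library left out. The difference of Slc22a14 was 1.65 on log2(TPM + 1) and 2.33 on log2(TPM + 0.1). The share of its TPM, in place of its counts, on Slc22a14-204 differed by 15.4 percentage points between the groups. Lcn2 and Osbpl5 lost their call on log2(TPM + 0.1), with adjusted p of 0.0709 and 0.0516. Slc25a29 lost its call with DESeq2 (0.0802), the effective-length offset (0.0734), log2(TPM + 0.1) (0.0511) and the GC and length trend removed (0.0656). Libraries with the same number deviated from their group means with correlations of -0.12, 0.01 and -0.06. These values showed no pairing by number, but with 3 libraries per group they cannot exclude a weak one. With the replicate block, Slc22a23 changed by 1.32, and Slc25a29 was not called (adjusted p = 0.0744). The 3 members below the filter had at most 10 counts in a group, and their intervals cover counting error only.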
